A study of Mus musculus with 11 samples.

Results

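The 10 genes described here encode 3 Notch receptors (Notch1, Notch2 and Notch3), 3 Notch ligands (Dll1, Dll4 and Jag1), 2 repressors that Notch switches on (Hes1 and Hey1), and 2 transcription factors of secretory cells (Atoh1 and Gfi1). They were taken by name from the deposited table, which lists 43346 genes, and all 10 passed the low-expression filter that left 19863 genes for testing. Colonic RNA came from male Swiss Webster mice of 8 to 10 weeks, and the germ-free group (n = 5) carried no microbiota. The humanized group (n = 6) was raised germ-free and received 300 μL of a stool suspension by gavage at 4 to 5 weeks of age, followed by 4 to 5 weeks of adaptation. All stool came from a single human donor, so the group represents 1 donor community. Colonic tissue was used, and the segment of colon is not given in the sources used here. Each library held between 39125290 and 64148538 counted reads.

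Notch signalling passes between touching cells. A Delta-like or Jagged ligand on one cell binds a Notch receptor on its neighbour, γ-secretase cuts the receptor, and the freed intracellular domain joins Rbpj to switch on Hes and Hey repressors. In the intestinal crypt, Hes1 represses Atoh1 and keeps cells absorptive, while cells that escape Notch express Atoh1 and become goblet, enteroendocrine or other secretory cells, which themselves carry Delta-like ligands. Notch genes also work outside the epithelium, with Notch1, Dll4, Jag1 and Hey1 in blood vessels and Notch3 in the mural cells around them.

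The class C site CACGCG, which Hairy-related repressors such as Hes1 can bind, occurs 3 times upstream of Atoh1 and 2 times upstream of Jag1. Both sequences are shown because they held the most copies among the RefSeq promoters (build GRCm38.p6) that matched 8 of the 10 genes. Hes1 and Hey1 were not matched. Each sequence below is the 250 bases before a start site, 5′ to 3′, with CACGCG on either strand in capitals. The Atoh1 sequence is at chr6:64728875-64729124 on the plus strand and the Jag1 sequence at chr2:137116521-137116770 on the minus strand.
Atoh1: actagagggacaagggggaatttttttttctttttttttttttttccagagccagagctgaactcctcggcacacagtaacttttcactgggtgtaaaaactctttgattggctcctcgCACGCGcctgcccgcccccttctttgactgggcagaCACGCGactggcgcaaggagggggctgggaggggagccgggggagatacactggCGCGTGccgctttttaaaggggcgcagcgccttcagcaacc
Jag1: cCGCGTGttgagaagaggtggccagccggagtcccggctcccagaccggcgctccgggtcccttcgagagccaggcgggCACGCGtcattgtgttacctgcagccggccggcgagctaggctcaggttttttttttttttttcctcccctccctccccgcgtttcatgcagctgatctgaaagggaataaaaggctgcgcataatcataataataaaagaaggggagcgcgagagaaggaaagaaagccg

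In these windows, CACGCG was present for 5 of the 8 genes, against 7.62% of all 32851 RefSeq promoters, and 3 or more copies were found in 0.225% of all promoters. Dll4, Notch2 and Dll1 held 1 copy each. The N-box CACNAG was present for 4 of the 8 genes and in 36.7% of all promoters. The E-box CANNTG was present for 3 of the 8 genes and in 66.2% of all promoters, and its form CAGCTG for 2 genes and in 13%. The Rbpj core TGGGAA was in none of the 10 member windows (Dll1 and Gfi1 have 2 start sites each) and in 21.6% of all promoters. Both strands were searched, and copies that overlap on opposite strands count separately. GC content was 55.6% to 72.0% in the member windows against a median of 52.4% in all promoters. These matches describe letters only and not bound sites.

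Of the 10 genes, 6 were downregulated in humanized mice at FDR below 0.01, namely all 3 receptors, the ligands Dll1 and Jag1, and the target Hey1. Dll4, Hes1, Atoh1 and Gfi1 were not below this threshold in edgeR's exact test. Among all tested genes, 19.3% were past the same threshold, 10.1% lower and 9.2% higher. The median log2-fold change (LFC) of humanized over germ-free mice was −0.68 for the 10 genes and 0.0084 for all tested genes. For the same 6 genes, every humanized mouse was below every germ-free mouse, which held for 9.73% of all tested genes. The groups were separate in the opposite direction for 8.67% of them and in either direction for 18.4%. No member was higher at FDR below 0.01, and 0 were higher at an unadjusted p below 0.05 or by edgeR's quasi-likelihood test or DESeq2. The 6 genes remained lower when libraries were scaled by total counts or by 11 epithelial marker genes, where 18.2% and 14.9% of all tested genes were lower, but none was lower at FDR below 0.01 when libraries were scaled by endothelial or smooth muscle markers, where 0.347% and 0.0453% of all tested genes were.

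**Figure D1:**
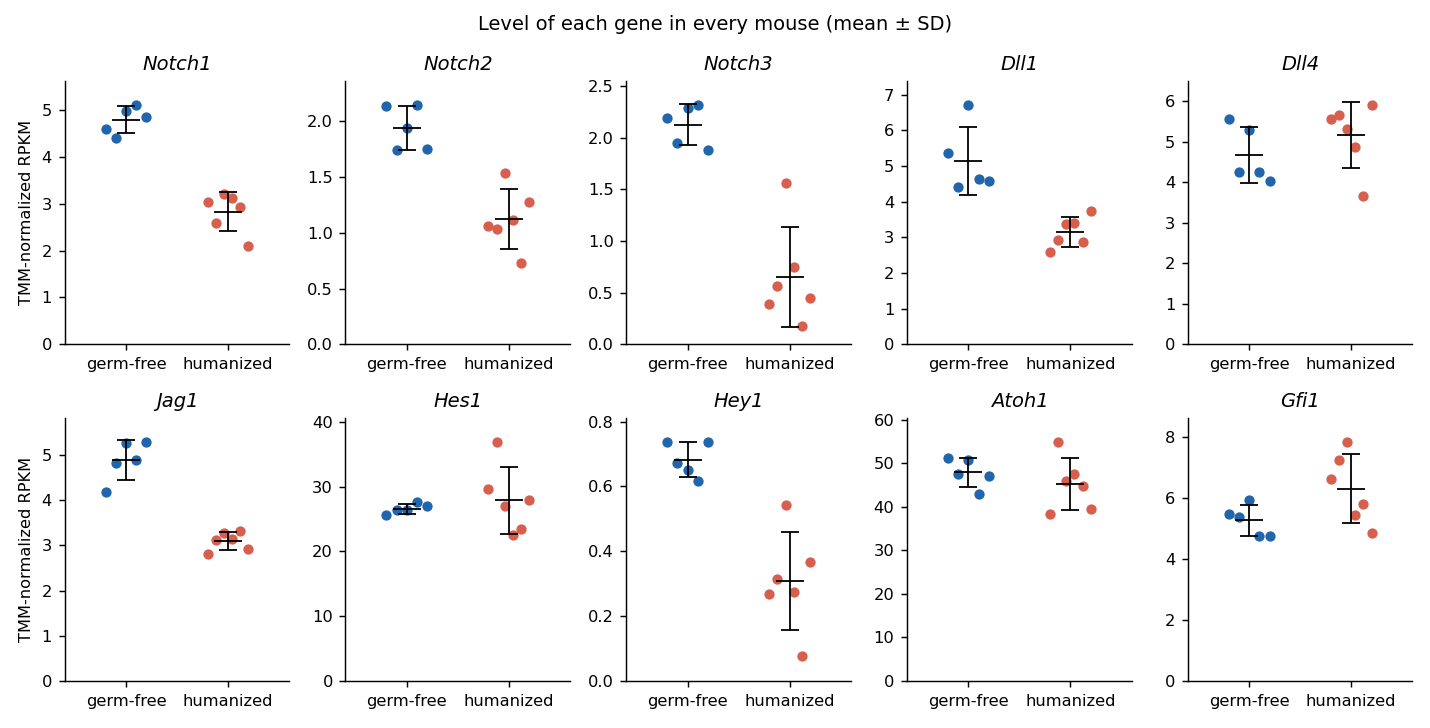
Each panel plots the TMM-normalized RPKM of 1 gene (vertical axis) in 5 germ-free and 6 humanized mice, with 1 point per mouse and black bars for the mean ± SD. The groups do not overlap for Notch1, Notch2, Notch3, Dll1, Jag1 and Hey1, and they overlap for Dll4, Hes1, Atoh1 and Gfi1.

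Levels are given as RPKM, read counts divided by the deposited coding length and by the library size after TMM normalization. Per unit of length, Atoh1 and Hes1 were the most abundant of the 10 genes in both groups, at the 94.1 and 88.6 percentiles of mean RPKM in germ-free mice. In germ-free mice the next genes were Gfi1, Dll1, Jag1, Notch1 and Dll4, with means between 4.67 and 5.26 RPKM and overlapping ranges. Notch3 and Notch2 followed, also with overlapping ranges, and Hey1 was lowest. In humanized mice Dll4 stood above Dll1 in 6 of 6 mice, and Notch3 fell below Notch2 in 5 of 6 mice.

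Notch1, the main receptor of crypt stem cells together with Notch2, lies on chromosome 2 from 26457903 to 26516663. Its level was 4.60, 4.39, 4.98, 5.11 and 4.85 RPKM in germ-free mice 1 to 5, and it ranged from 2.099 to 3.21 RPKM with a median of 2.98 in humanized mice. The lowest germ-free mouse was above the highest humanized mouse. The means were 4.79 ± 0.289 RPKM (SD, n = 5) and 2.83 ± 0.417 RPKM (SD, n = 6), a level 40.9% below the germ-free mean (LFC −0.76, standard error 0.10, FDR = 1.49e-10).

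Notch2, on chromosome 3 from 98013538 to 98150367, had 2.14, 1.75, 1.94, 2.15 and 1.75 RPKM in germ-free mice 1 to 5. In humanized mice it ranged from 0.727 to 1.53 RPKM, with a median of 1.09. Humanized mouse 3 was highest and mouse 5 lowest, and the groups did not overlap. The means were 1.94 ± 0.199 RPKM (SD, n = 5) and 1.12 ± 0.269 RPKM (SD, n = 6), with an LFC of −0.79 (standard error 0.15, FDR = 4.64e-05).

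Notch3, the receptor of vascular smooth muscle and pericytes, showed the greatest decrease of the 10 genes. It lies on chromosome 17 from 32120820 to 32166880. Its level was 2.19, 1.95, 2.29, 2.32 and 1.88 RPKM in germ-free mice 1 to 5, and it ranged from 0.178 to 1.56 RPKM with a median of 0.505 in humanized mice. Humanized mouse 3 was highest, still below every germ-free mouse, and mouse 5 was lowest with 68 reads. The means were 2.12 ± 0.199 RPKM (SD, n = 5) and 0.647 ± 0.484 RPKM (SD, n = 6), which is 69.5% below the germ-free mean (LFC −1.71, standard error 0.40, FDR = 2.80e-04). The coefficient of variation of Notch3 was 9.35% in the germ-free group and 74.8% in the humanized group, whereas that of Notch1 was 6.04% and 14.7%.

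The summed RPKM of the 3 receptors was 8.86 ± 0.584 in the germ-free group and 4.60 ± 0.938 in the humanized group. Notch1 made up 54.1% ± 2.07 of this sum in the germ-free group and 62.4% ± 9.09 in the humanized group (SD, n = 5 and n = 6). The share of Notch3 was 23.96% ± 1.05 and 13.0% ± 6.81, and in humanized mouse 3 it was 24.7%, inside the germ-free range.

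The ligands did not move together. Dll1, carried by secretory progenitors of the crypt, lies on chromosome 17 from 15367354 to 15376872. Its level was 5.35, 4.42, 6.71, 4.63 and 4.58 RPKM in germ-free mice 1 to 5 and ranged from 2.58 to 3.74 RPKM with a median of 3.15 in humanized mice. The groups did not overlap, and the LFC was −0.71 (standard error 0.13, FDR = 1.68e-05).

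Jag1, on chromosome 2 from 137081456 to 137116644, had 4.19, 4.83, 5.27, 4.90 and 5.30 RPKM in germ-free mice 1 to 5. In humanized mice it ranged from 2.81 to 3.31 RPKM, with a median of 3.13. Its humanized values were the tightest of the 10 genes, with a coefficient of variation of 6.30%, and none reached the germ-free range. The means were 4.90 ± 0.450 RPKM (SD, n = 5) and 3.10 ± 0.195 RPKM (SD, n = 6), with an LFC of −0.66 (standard error 0.07, FDR = 2.41e-10).

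Dll4, the second Delta-like ligand of crypt secretory cells and a ligand of endothelial tip cells, lies on chromosome 2 from 119325784 to 119335962. Its level was 5.55, 4.26, 5.29, 4.24 and 4.03 RPKM in germ-free mice 1 to 5 and ranged from 3.66 to 5.91 RPKM with a median of 5.44 in humanized mice. The groups overlapped (LFC 0.14, standard error 0.13, FDR = 0.519), with humanized mice 2 and 6 above the germ-free range and mouse 5 below it. An interval of 2 standard errors around this LFC ran from −0.12 to 0.40, and with total counts the LFC turned to −0.04. Dll4 made up 31.7% ± 2.98 of the summed RPKM of the 3 ligands in germ-free mice, at most 36.8%, and 45.1% ± 4.80 in humanized mice, at least 37.1% (SD, n = 5 and n = 6).

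The 2 targets differed from each other. Hes1, the repressor that holds crypt progenitors back from the secretory fate, lies on chromosome 16 from 30064384 to 30067796. It had 25.6, 26.4, 26.4, 27.7 and 27.0 RPKM in germ-free mice 1 to 5. In humanized mice it ranged from 22.6 to 36.9 RPKM, with a median of 27.5, and spanned the whole germ-free range. The means were 26.6 ± 0.777 RPKM (SD, n = 5) and 27.9 ± 5.17 RPKM (SD, n = 6), with an LFC of 0.07 (standard error 0.11, FDR = 0.715) and an interval of 2 standard errors from −0.14 to 0.28. The sign of this small difference turned without humanized mouse 2, the highest, to an LFC of −0.03, and with total counts to −0.12.

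Hey1, a repressor expressed mainly in endothelium, was the least abundant of the 10 genes. It lies on chromosome 3 from 8663359 to 8667256. Its level was 0.738, 0.673, 0.649, 0.618 and 0.736 RPKM in germ-free mice 1 to 5 and ranged from 0.0774 to 0.543 RPKM with a median of 0.294 in humanized mice. Humanized mouse 3 was highest and mouse 5 lowest, with 12 reads. The LFC was −1.15 (standard error 0.33, FDR = 0.00474). This call was lost in edgeR's quasi-likelihood test (FDR = 0.0212), and when any 1 of germ-free mice 1 to 5 or humanized mice 1, 2 and 4 was left out, with LFC values from −1.18 to −1.11 and FDR from 0.0114 to 0.0178.

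Atoh1, the transcription factor that commits cells to the secretory fate, lies on chromosome 6 from 64729146 to 64731233. It had 51.1, 47.6, 50.8, 42.8 and 47.0 RPKM in germ-free mice 1 to 5. In humanized mice it ranged from 38.3 to 55.0 RPKM, with a median of 45.3. The humanized range enclosed the germ-free range (LFC −0.08, standard error 0.09, FDR = 0.588), and an interval of 2 standard errors ran from −0.26 to 0.09. The ratio of Atoh1 to Hes1 RPKM within a mouse was 1.80 ± 0.175 in the germ-free group and 1.65 ± 0.313 in the humanized group (SD, n = 5 and n = 6).

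Gfi1, a repressor that acts after Atoh1 and favours goblet over enteroendocrine cells, is also used by blood cells. It lies on chromosome 5 from 107716657 to 107726036. Its level was 5.48, 5.37, 5.94, 4.76 and 4.74 RPKM in germ-free mice 1 to 5 and ranged from 4.86 to 7.84 RPKM with a median of 6.21 in humanized mice. Humanized mice 1, 2 and 3 were above every germ-free mouse, and the others lay within the germ-free range. The LFC was 0.26 (standard error 0.12, FDR = 0.157), with an interval of 2 standard errors from 0.02 to 0.50.

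An exact permutation test on log2 RPKM over all splits of the 11 mice gave a two-sided p of 0.00433, the smallest it can give, for each of Notch1, Notch2, Notch3, Dll1, Jag1 and Hey1, which follows from their separate groups and is not further evidence. It gave 0.359 for Dll4, 0.732 for Hes1, 0.364 for Atoh1 and 0.0996 for Gfi1. The library kit does not mark strand, so antisense transcripts within a gene cannot be told apart from it. In GENCODE M21, a gene on the opposite strand shared 20.5% of the exon bases of Dll1 (A930024N18Rik), 7.504% of those of Notch1 (0610009E02Rik, beside 2.91% for Gm13568), 6.03% of those of Notch3 (Gm17276), 5.56% of those of Dll4 (Gm14207) and 3.17% of those of Gfi1 (A430072P03Rik). Gm14207 was higher in humanized mice (LFC 0.49, FDR = 0.00421), and Gm17276 was lower (LFC −1.60, FDR = 0.00474). The LFC was −0.49 for A930024N18Rik (FDR = 0.0178), −0.45 for 0610009E02Rik (FDR = 0.0147) and −0.57 for Gm13568 (FDR = 0.0145). A930024N18Rik had 154 to 581 reads per mouse against 400 or more for Dll1, and Gm14207 had 247 to 383 against 669 or more for Dll4. 0610009E02Rik had 204 to 654 against 1371 or more for Notch1, and Gm17276 had at most 110. No listed gene overlapped Notch2, Jag1, Hes1, Hey1 or Atoh1.

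Both groups expressed epithelial genes at a high level, with 11 epithelial markers summing to between 3864 and 5373 RPKM in the germ-free group and between 4453 and 6098 RPKM in the humanized group. In bulk tissue, fewer cells of a type and less RNA per cell cannot be told apart. All 12 smooth muscle and mural markers (Acta2, Tagln and others) were lower in humanized mice at FDR below 0.01, with a median LFC of −1.98 and a summed level of 428 to 1204 RPKM in germ-free and 51.0 to 419 RPKM in humanized mice. Of 10 fibroblast markers, 8 were lower (median LFC −1.37), with sums of 209 to 343 RPKM and 24.3 to 177 RPKM. All 12 endothelial markers (Eng, Pecam1 and others) had an LFC below 0, with a median of −0.93 and sums of 37.9 to 45.8 RPKM and 5.03 to 35.6 RPKM. By edgeR's exact or quasi-likelihood test 0 of the 12 were called, 10 had an unadjusted p below 0.05, and DESeq2 called 2 lower. The count of 0 rested on single libraries, since 9 of the 12 were lower without humanized mouse 5, 7 without humanized mouse 3 and 1 without humanized mouse 4. It was 7 at FDR below 0.05 and 4 with total counts. The quasi-likelihood test called 7 smooth muscle and 4 fibroblast markers lower. No marker in these 3 lists had 0 reads in any mouse. Of 10 markers of enteric neurons and glia, 8 were lower (median LFC −1.83), with sums of 9.32 to 12.9 RPKM in germ-free and 1.64 to 4.46 RPKM in humanized mice. Of 10 crypt and stem cell genes, 6 were lower (median LFC −0.36), with sums of 175 to 196 RPKM and 139 to 167 RPKM. The part of these cell types in the differences of the Notch genes was not tested.

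**Figure D2:**
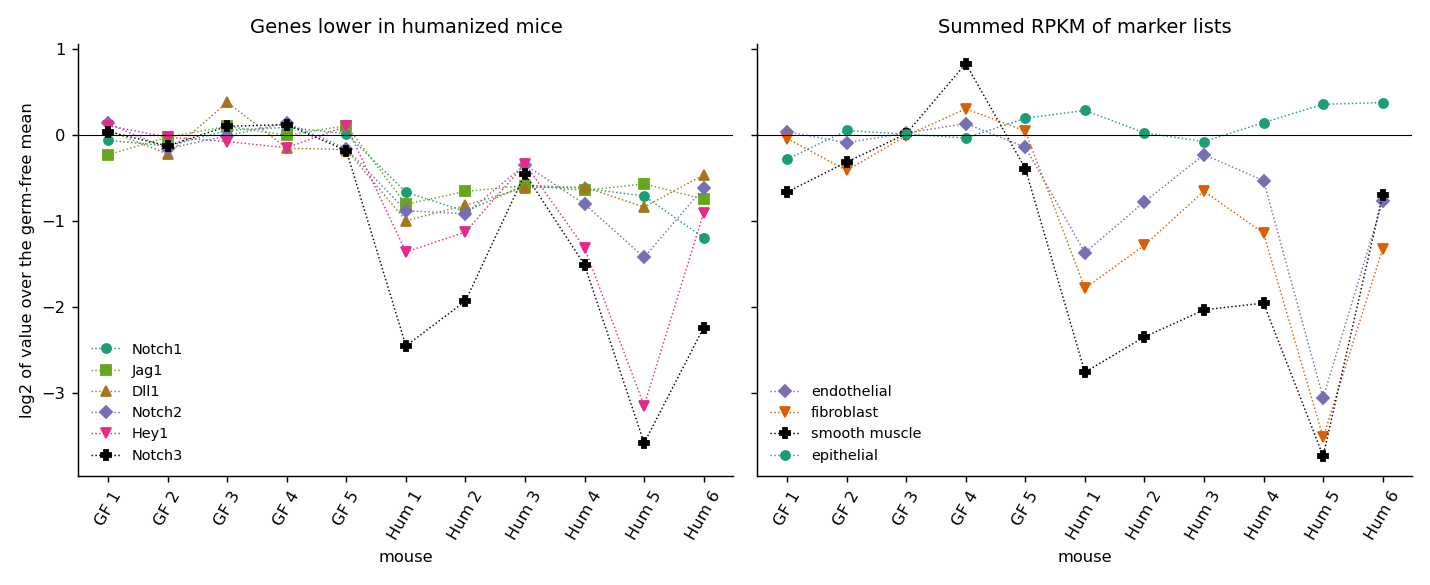
Left, RPKM of the 6 genes that were lower in humanized mice, and right, the summed RPKM of 4 marker lists, in germ-free (GF) mice 1 to 5 and humanized (Hum) mice 1 to 6, each as log2 of the value over its germ-free mean. Notch3 and Hey1 are lowest in Hum 5, where the endothelial, fibroblast and smooth muscle sums are also lowest, while Jag1 and Notch1 stay in a narrower band.

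The 6 lower genes differed in how they varied among humanized mice. Notch3, Notch2 and Hey1 were highest in humanized mouse 3 and lowest in mouse 5, as were the summed levels of the endothelial, fibroblast and tuft cell genes. The smooth muscle sum was also lowest in mouse 5 but highest in mouse 6. The sums of leukocyte markers and of enteric neuron and glia markers were lowest in mouse 5 too, but highest in mice 2 and 4. Dll4, which was not called, was also lowest in mouse 5. Notch1 was also highest in mouse 3, but lowest in mouse 6. Jag1 was highest in mouse 5 and lowest in mouse 1, and Dll1 was highest in mouse 6 and lowest in mouse 1. Without humanized mouse 5, the LFC was −1.52 for Notch3 (FDR = 3.27e-05) and −0.94 for Hey1 (FDR = 2.94e-04), and the same 6 genes were lower. Without humanized mouse 3, the LFC was −2.19 for Notch3 (FDR = 2.66e-11) and −1.39 for Hey1 (FDR = 1.32e-04) in edgeR's exact test.

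Scaling the libraries to 12 endothelial or 12 smooth muscle markers moved the median LFC of all tested genes to 1.59 and 2.35, so the LFC of each gene is also given relative to that median. With total counts this median was −0.18, and on the epithelial scale −0.22. Of all genes called, 52.2% were lower with TMM, 82.4% with total counts, 84.4% on the epithelial scale, 0.848% on the endothelial scale and 0.0518% on the smooth muscle scale. Scaled to endothelial markers, Notch1 had an LFC of 0.87, Notch2 of 0.56, Dll1 of 0.83 and Jag1 of 0.97, while Notch3 had −0.78 and Hey1 −0.18, none of them below an FDR of 0.01. Relative to the median of all genes, Notch1 lay between −0.77 and −0.70 and Jag1 between −0.67 and −0.62 under 5 scalings. Relative to it, Notch3 lay between −2.37 and −1.64, Hey1 between −1.77 and −1.12, Notch2 between −1.03 and −0.78, and Hes1 between 0 and 0.07. Subtracting the median removes the shift that a scaling gives to all genes. Similar values across scalings therefore follow from the calculation and are not further evidence. On the smooth muscle scale 87.5% of all tested genes were higher at FDR below 0.01, and so were 8 of the 10 genes, all but Notch3 (LFC 0.28, FDR = 0.591) and Hey1 (LFC 0.78, FDR = 0.158).

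**Figure D3:**
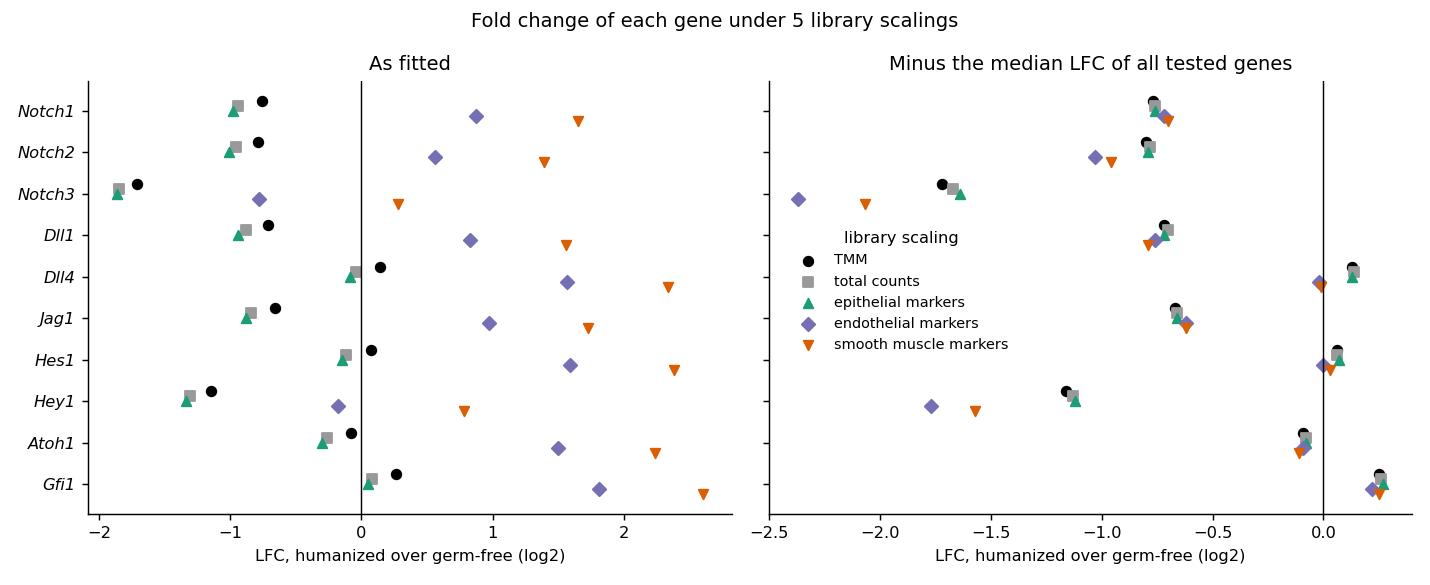
LFC of humanized over germ-free mice (horizontal axis, log2) of each of the 10 genes when libraries were scaled by TMM, total counts, or epithelial, endothelial or smooth muscle markers, as fitted (left) and after subtracting the median LFC of all tested genes (right). Scaling to endothelial or smooth muscle markers shifts every gene to the right. Subtracting the median removes the shift that is shared by all genes, and the 5 values of Notch1 then lie between −0.77 and −0.70.

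Of 48 other pathway genes, 46 were tested, and 7 were lower and 1 was higher at FDR below 0.01. Thus 15.2% were lower against 10.1% of all tested genes, and 2.17% were higher against 9.2%. Their median LFC was −0.10, against 0.0084 for all tested genes, and 32 of the 46 had an LFC below 0. At FDR below 0.05, 8 were lower and 5 higher (17.4% and 10.9%, against 14.6% and 14.0% of all tested genes). With total counts 12 were lower (26.1%, against 18.2% of all tested genes). On the endothelial scale 12 were higher (26.1%, against 40.6% of all), and on the smooth muscle scale 40 (87.0%, against 87.5% of all).

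Among the lower genes were Numbl, a relative of the Notch inhibitor Numb (LFC −1.43, FDR = 0.00132), Dner, a Delta-like surface protein of neurons (LFC −1.38, FDR = 6.61e-06), Heyl, a Hey-family repressor of mural cells (LFC −1.12, FDR = 0.00611), and Maml2, a coactivator of the Notch intracellular domain (0.992 ± 0.165 and 0.497 ± 0.148 RPKM, FDR = 2.97e-04). Smaller decreases were those of Lfng, which adds sugars to Notch and tunes its choice of ligand (LFC −0.47, FDR = 0.00113), and of Spen, a corepressor that acts with Rbpj (LFC −0.38, FDR = 2.02e-04). Lfng had 9.39 ± 0.573 RPKM in the germ-free group and 6.80 ± 1.04 RPKM in the humanized group, with every humanized mouse below every germ-free mouse. Numbl had 1.02 ± 0.156 and 0.380 ± 0.200 RPKM. Psenen, a subunit of γ-secretase, was the higher gene, with 54.8 ± 2.45 and 66.6 ± 5.27 RPKM (LFC 0.28, FDR = 0.00245). This call was lost with total counts, on the epithelial scale, and without any 1 of germ-free mice 1 to 4.

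Rbpj, the DNA-binding partner of the Notch intracellular domain, had 7.92 ± 0.458 RPKM in the germ-free group and 7.19 ± 0.520 RPKM in the humanized group (LFC −0.14, standard error 0.06, FDR = 0.175). Nrarp, a feedback inhibitor that Notch switches on, had 10.4 ± 1.36 and 10.4 ± 1.91 RPKM (standard error of the LFC 0.13, FDR = 1). Rbpj and Nrarp were chosen with their values known.

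**Figure D4:**
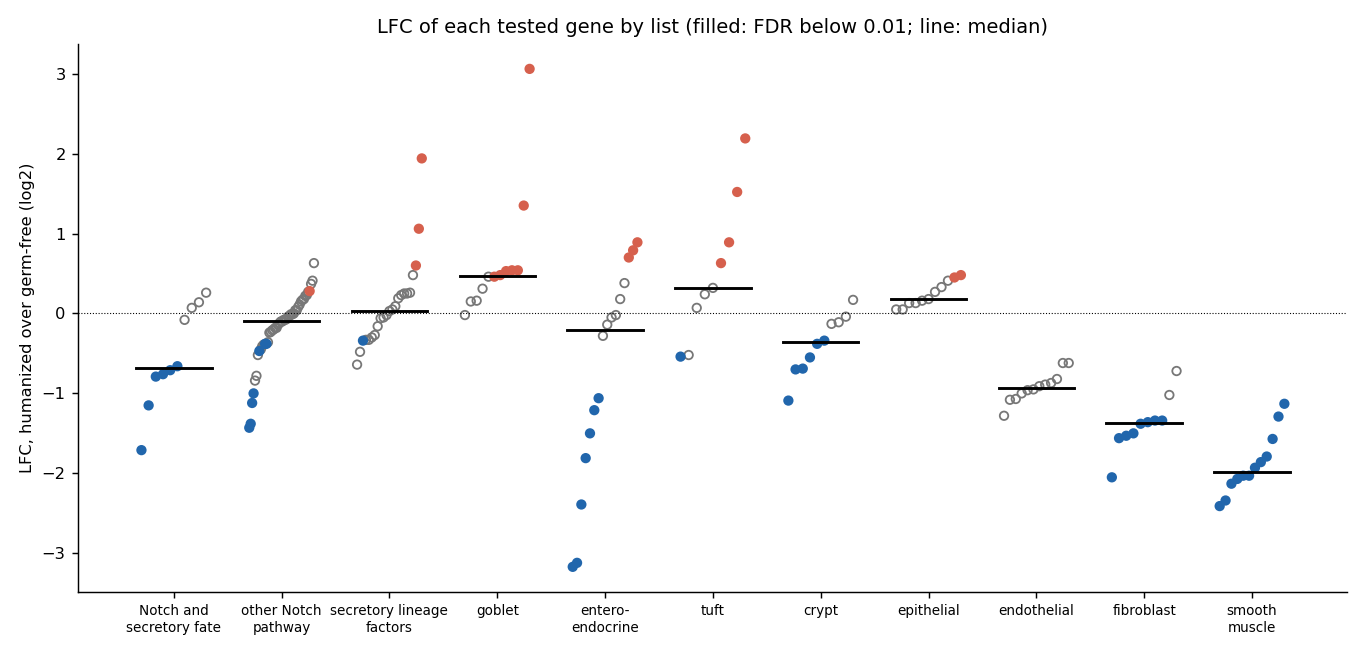
LFC of humanized over germ-free mice with TMM scaling (vertical axis, log2) for every tested gene of 11 gene lists, where filled points are below an FDR of 0.01 (blue lower, red higher), open points are not, and lines are medians. The median is −0.68 for the Notch and secretory fate genes, −0.10 for the other Notch pathway genes, 0.03 for the secretory lineage factors and 0.47 for the goblet genes.

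Of 26 transcription factors of the secretory lineages, 23 were tested, 3 were higher (13.0%, against 9.2% of all tested genes) and 1 was lower (4.35%, against 10.1%), and the median LFC was 0.03. Bhlha15, a factor of professional secretory cells and plasma cells, had 0.304 ± 0.0853 RPKM in germ-free and 1.17 ± 0.683 RPKM in humanized mice (LFC 1.94, FDR = 3.34e-04). Pou2f3, the factor that specifies tuft cells, had 0.207 ± 0.0684 and 0.437 ± 0.0648 RPKM (LFC 1.06, FDR = 2.12e-04). Xbp1, a factor of the secretory apparatus, had 60.1 ± 4.46 and 90.9 ± 13.6 RPKM (LFC 0.60, FDR = 1.52e-06). Sox9, a factor of crypt progenitors, was lower (LFC −0.34, FDR = 0.00726), and this call was lost in the quasi-likelihood test, with no low-expression filter, and without any 1 of germ-free mice 2 to 5 or humanized mouse 6.

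Scaled to the epithelial markers, 3 of the 23 factors were lower and 1 was higher, where 14.9% of all tested genes were lower and 2.76% higher. Spdef, which follows Atoh1 in goblet cells, had 72.9 ± 11.7 RPKM in germ-free and 70.3 ± 11.1 RPKM in humanized mice (LFC −0.05, FDR = 0.821), and Neurog3, which starts the enteroendocrine fate, had 1.02 ± 0.207 and 0.727 ± 0.252 RPKM (LFC −0.48, FDR = 0.174). Both were named after their values were seen. The 10 leukocyte markers summed to between 93.6 and 139 RPKM in the germ-free group and between 116 and 753 RPKM in the humanized group. Their part in Bhlha15, Xbp1 or Gfi1 was not tested.

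Products of the secretory cells moved in both directions while Atoh1 did not pass the threshold. Of 12 goblet cell genes, 7 were higher in humanized mice, with a median LFC of 0.47. Only 3 were higher in the quasi-likelihood test, 2 with total counts and 1 on the epithelial scale, where the median was 0.25. With TMM, Zg16 was among the 7 (LFC 0.54, FDR = 6.19e-04), and the goblet-defining Muc2 was not below the threshold (LFC 0.46, FDR = 0.0509). Of 16 enteroendocrine genes, 7 were lower and 3 were higher, and on the epithelial scale 7 were lower and 0 higher. Gcg, the precursor of glucagon-like peptides, was lower (LFC −1.81), and Chgb, a granule protein, was higher (LFC 0.70). Of 9 tested tuft cell genes, 4 were higher (2 on the epithelial scale) and 1 was lower, a call lost without germ-free mouse 1, 3, 4 or 5 or humanized mouse 1, 2, 4 or 6.

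Among 16068 other genes with a mean CPM of at least 1, those closest in pattern to each lower gene were found by the root mean square difference of centred log2 CPM over the 11 mice. For Notch3 they were Pygo1, Col12a1 and Dchs1, at 0.224 to 0.235 against a median of 1.245 over all genes. For Hey1 they were Eno2, Dact1 and Gpr116 (0.189 to 0.207), and for Notch2 Syn1, Limch1 and Fap (0.106 to 0.124). For Notch1 they were Syt11, Kif1a and Tenc1 (0.101 to 0.114). Chrm3 was among the 3 closest genes of both Dll1 (0.170) and Jag1 (0.125), together with Pik3ip1 and Rps6ka2 for Dll1 and with Ercc1 and Asb1 for Jag1.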

How the data were processed

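Counts of reads per gene were deposited by the authors without normalization in 1 table of 43346 genes. Per the labels and methods, 101 bp paired-end reads of an Illumina TruSeq v2 library were aligned with TopHat 2.1.0 to mm10 and counted with featureCounts of Subread 1.4.6-p5. The strand setting and annotation release are not given in the sources used here. The other column used is the deposited coding length. Totals were 49097005 to 64148538 reads per germ-free mouse and 39125290 to 54219854 per humanized mouse, which limits counting error but not the spread between mice. Replicates differed by far more than sampling noise (mean chi-square per gene 21.2 to 132).

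The analysis used R 4.3.3, edgeR 4.0.16 and DESeq2 1.42.0. As in the study, low genes were removed by filterByExpr, libraries were scaled by TMM, and groups were compared over all 19863 genes with edgeR's exact test, Benjamini–Hochberg correction and FDR below 0.01. Standard errors come from the quasi-likelihood fit. Permutation tests used log2 (RPKM + 0.01). No batch is labelled. On simulated counts of 19646 genes for this comparison, the exact test found 155 of 194 changed genes with 13 false calls.

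Members and lists were chosen with earlier results of these data known. Named genes are all members, called pathway and lineage genes, the most abundant markers and the 3 closest patterns, except where stated; Muc2 was named after its value was seen. One called pathway gene is not reported here. Alternatives were other tests, normalizations, marker scalings, filters, thresholds, left-out mice and a replicate block. Jchain was matched through an older symbol.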

Additional observations from a re-analysis of the deposited data

Results flagged for a closer look

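Dixon's ratio was applied to the values of each of the 10 genes and to the summed RPKM of 13 gene lists, in each group, 46 sets of values in all, of which chance alone flags about 1 in 20. No value of the 10 genes exceeded it. The summed RPKM of the smooth muscle markers was 419 in humanized mouse 6, where the next highest humanized mouse had 175. The summed RPKM of the tuft cell genes was 10.9 in humanized mouse 5, where the next lowest had 14.2.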

How the results depend on the processing

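The count of 6 lower genes was 5 or 6 without any 1 mouse. Scaled to endothelial markers, 2 of the 10 genes were called, both higher, and to smooth muscle markers 8, all higher. Among the 46 other pathway genes (8 called), the number was 5 in the quasi-likelihood test (8.7% lower and 2.17% higher, against 6.53% and 7.05% of all tested genes). It was 13 at FDR below 0.05 (17.4% and 10.9%, against 14.6% and 14.0%), and 4 with an absolute LFC above 0.5 (8.7% and 0%, against 8.6% and 4.44%). It was 12 and 40 on the endothelial and smooth muscle scales, where 40.6% and 87.5% of all tested genes were higher. Without 1 mouse it was 5 to 11, where germ-free mice 1 and 3 each gave 5. Among the 23 lineage factors (4 called), the number was 7 at FDR below 0.05 (3 lower and 4 higher), and 9 and 23 on the endothelial and smooth muscle scales. It was 4 on the epithelial scale with 3 lower, and 3 to 5 without 1 mouse. All tested genes gave 3826 calls, 2880 to 4411 without 1 mouse, and 8138 and 17389 on the endothelial and smooth muscle scales.

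Signs turned on the endothelial scale for Notch1 (LFC 0.87), Notch2 (0.56), Dll1 (0.83), Jag1 (0.97) and Atoh1 (1.5). On the smooth muscle scale they turned for Notch1 (1.65), Notch2 (1.39), Notch3 (0.28), Dll1 (1.56), Jag1 (1.73), Hey1 (0.78) and Atoh1 (2.24). Dll4 turned to −0.04 with total counts and −0.09 on the epithelial scale, and Hes1 to −0.12 and −0.15. Differences of mean log2 RPKM turned with total counts for Dll4 (−0.05) and Hes1 (−0.14), and without humanized mouse 2 for Hes1 (−0.03). Without 1 mouse, Hes1 ranged from −0.03 to 0.12 in LFC and from −0.03 to 0.11 in log2 RPKM. The endothelial and smooth muscle scales divide by markers with a median LFC of −0.93 and −1.98.

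Equal numbers in the labels mark different animals, and deviations of equally numbered mice correlated at −0.13 to 0.091, so the numbers do not pair them. A replicate block in the quasi-likelihood fit gave 1012 calls among all genes, 4 lower members (not Notch3, LFC −1.95, FDR = 0.013, or Hey1, LFC −1.37, FDR = 0.046), 0 other pathway genes and 1 factor. Counts as low as 12 reads for Hey1 limit its precision.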

Other observations

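Crypt and stem cell genes were lower in humanized mice in 6 of 10 cases at FDR below 0.01, with a median LFC of −0.36, and Rgmb, a coreceptor of bone morphogenetic proteins, had an LFC of −0.55. Of 10 genes of absorptive colonocytes, 5 were higher (3 on the epithelial scale), with a median LFC of 0.62, and Car1, a carbonic anhydrase, had 3044 ± 620 RPKM in the germ-free group and 7698 ± 1770 RPKM in the humanized group (SD, n = 5 and n = 6). Of the 11 epithelial markers, 2 were higher (median LFC 0.18) and, scaled to these markers themselves, 0. Of 10 markers of enteric neurons and glia, 8 were lower (median LFC −1.83). The number was 3 where at least 10 counts in every mouse were required, which can drop a gene because it is low in 1 group. Uchl1, an abundant neuronal protein, had 3.51 ± 0.401 RPKM in the germ-free and 0.878 ± 0.384 RPKM in the humanized group. Of 10 leukocyte markers, 4 were higher (median LFC 0.78), and Jchain, which joins IgA units, had an LFC of 3.20.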
